A study of Mus musculus with 12 samples.

Results

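Libraries labelled NICD_TCFKO were compared with libraries labelled NOTCHWT_TCFKO, 3 of each, which together make up 6 of the 12 libraries of the series; they were taken by their labels, and all genes were examined. RNA was sequenced from sorted mouse bone marrow cells of the Lin- Sca1+ cKit+ (LSK) phenotype, a gate that takes in blood stem cells and the multipotent progenitors next to them. As labelled, mice of the NICD_TCFKO group carried Tcf7 lox/lox, Mx1Cre and a Notch1 intracellular domain transgene behind a lox stop at the R26 locus (R26 N1IC lox/+). Mice of the NOTCHWT_TCFKO group carried Tcf7 lox/lox and Mx1Cre without that transgene. Both groups were given poly(I:C) at 2 ug/g, which induces Mx1Cre, were on a mixed C57BL/6J and Sv/129 background, and carried the same batch label. Some sample numbers in the library names repeat across the 12 libraries, so whether the 6 shared a sequencing run is not known. Mx1Cre is driven by an interferon-responsive promoter and is active in many cell types of the marrow and elsewhere. The sort of NICD_TCFKO cells added CD45.2+ and eGFP+ to the gate, and this addition cannot be told apart from the transgene. The labels used here give no age and do not name the lox-flanked exons of Tcf7. They do not say whether the libraries of a group came from separate mice, so the p-values measure spread between libraries, which may be partly technical. That spread was estimated within groups from all 12 libraries of the series, not only from the 6 compared.

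Notch1 is a surface receptor whose intracellular domain is cut free when a ligand binds, enters the nucleus and joins the DNA-binding factor RBPJ to switch on target genes. In progenitors that reach the thymus this signal starts T cell development. Tcf7 encodes TCF-1, a DNA-binding factor that is itself induced by Notch and helps to open the T cell programme.

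Tcf7 (mm10 chromosome 11, 52252371 to 52283014) did not follow the label that both groups share. It had 297, 896 and 615 CPM (counts scaled to a common library size) in the libraries labelled NICD_TCFKO, against 0.819, 2.76 and 0.267 CPM in those labelled NOTCHWT_TCFKO. It was thus abundant in every library labelled NICD_TCFKO and low in every library labelled NOTCHWT_TCFKO, a log2 difference of 8.89 ± 0.80 (SE; adjusted p = 0.000141, edgeR quasi-likelihood test with Benjamini-Hochberg adjustment). These counts cover the whole gene, so they do not show whether exons between lox sites are present. Group names are therefore used below as labels only, and every direction is that of the libraries so labelled. A630014C17Rik, an antisense gene that overlaps the Tcf7 gene (mm10 chromosome 11, 52276055 to 52286179) and was picked after its values were seen, had 0.65, 2.01 and 1.15 CPM in libraries labelled NICD_TCFKO and no count in those labelled NOTCHWT_TCFKO. Whether the counting used strand is not given in the sources used here, so reads of Tcf7 and of its antisense partner cannot be told apart.

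Notch1 had 591, 886 and 846 CPM in libraries labelled NICD_TCFKO, against 145, 104 and 197 CPM in those labelled NOTCHWT_TCFKO (log2 2.38 ± 0.23, adjusted p = 0.000101). A transgene of the Notch1 intracellular domain shares sequence with Notch1, so the 2 sources of reads were not separated. Gt(ROSA)26Sor, the transcript of the locus that holds the transgene, was lower, with 7.0, 8.95 and 7.84 CPM in libraries labelled NICD_TCFKO against 13.3, 11.7 and 13.6 CPM in those labelled NOTCHWT_TCFKO (log2 -0.70 ± 0.16, adjusted p = 0.0134). That call was lost when only the 2 groups were fitted (adjusted p = 0.0525) and without both libraries numbered 1 (adjusted p = 0.0923). The neighbouring genes Thumpd3 (log2 0.06 ± 0.09, adjusted p = 0.688) and Setd5 (log2 0.01 ± 0.05, adjusted p = 0.956) did not pass the test.

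The libraries held 39927224 to 42984907 counts each in NICD_TCFKO and 37488803 to 40357607 in NOTCHWT_TCFKO. The first principal component of the 6 libraries held 54.2% of the variance and separated the groups. Replicates correlated at Pearson's r of 0.938 to 0.972 across genes, which are not independent replicates, and every pair differed by far more than counting noise. Xist and the Y-linked genes differed within groups: NICD_TCFKO 1 and NOTCHWT_TCFKO 3 were at 0.5 and 0.727 CPM of Xist and the other 4 libraries at 2160 CPM or more, and Y-linked genes were present in NICD_TCFKO 1, NOTCHWT_TCFKO 1 and NOTCHWT_TCFKO 3, so NOTCHWT_TCFKO 1 held both. Leaving these genes out of the fit left both gene counts given next within 1.5 times. That step only removes those genes and fits no term for sex, so it cannot show whether sex affects other genes.

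Of 16024 genes tested, 1650 were higher in libraries labelled NICD_TCFKO, 10.3% of those tested, and 1292 were lower, 8.06%. The share called in either direction was 18.4%. Changes of at least 2-fold made up 700 of the higher and 603 of the lower calls, and changes of at least 16-fold made up 193 and 95. The median log2 difference over all genes tested was 0.004. The counts leaned on single libraries: they came to 1009 higher and 649 lower without NICD_TCFKO 2, 1095 and 771 without NICD_TCFKO 3, 861 and 749 without NOTCHWT_TCFKO 1, and 1144 and 786 without NOTCHWT_TCFKO 2. A core of 617 higher and 379 lower genes passed in each of the 15 alternative analyses that gave them an adjusted p. Genes that an alternative filtered out were not counted as lost there.

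**Figure D1:**
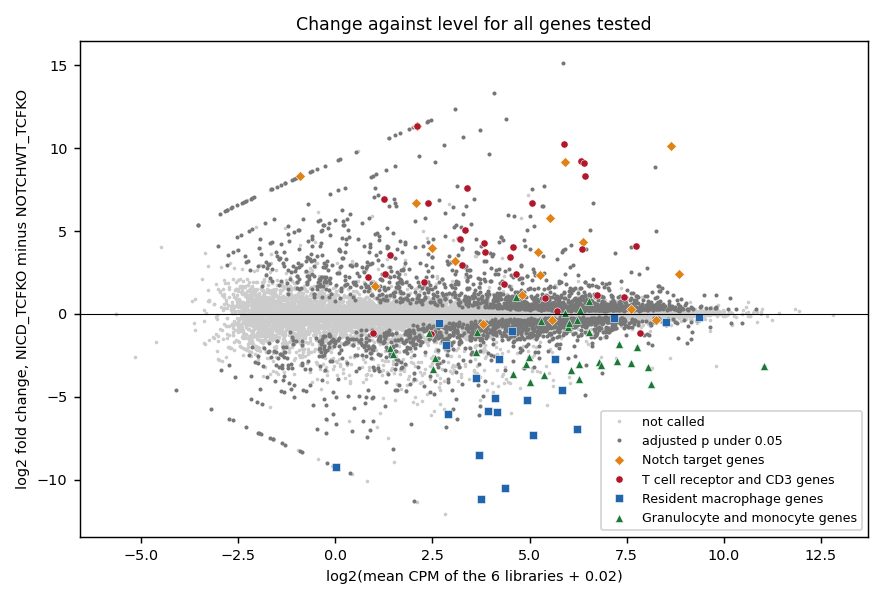
Log2 fold change (NICD_TCFKO minus NOTCHWT_TCFKO) against log2 of the mean CPM of the 6 libraries, 1 point per gene tested, with called genes in dark grey and 4 gene lists in colour. T cell receptor and Notch target genes reach log2 11.35 at the top, and resident macrophage genes reach -11.19 at the bottom; the straight rows of points are genes with no count in 1 group.

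The largest increases were not all in T cell genes. BC018473, an antisense gene with no assigned function (mm10 chromosome 11, 116752167 to 116759373), had 94.7, 120 and 137 CPM in libraries labelled NICD_TCFKO and no count in those labelled NOTCHWT_TCFKO, at least 1520-fold higher against a floor of 3 counts per library. St6galnac1, a sialyltransferase gene on the same chromosome (116765025 to 116775507), picked after its values were seen, had 0.25, 1.21 and 1.59 CPM in libraries labelled NICD_TCFKO and no count in those labelled NOTCHWT_TCFKO. Prss2, a trypsinogen gene that lies among the T cell receptor beta genes on chromosome 6 (41521787 to 41525079), had 18.8, 60.5 and 46 CPM in libraries labelled NICD_TCFKO, against 1 count in the 3 libraries labelled NOTCHWT_TCFKO, a ratio of 4900 with an exact 95% counting interval of 880 to 194000. Slc5a9, a sodium-coupled sugar transporter, had 5.32, 5.69 and 11.2 CPM in libraries labelled NICD_TCFKO and no count in the others, at least 95.8-fold higher. Cldn2, a tight junction protein, had 2.75, 10.1 and 4.56 CPM in libraries labelled NICD_TCFKO, against 1 count in those labelled NOTCHWT_TCFKO, a ratio of 682 (interval 122 to 27000).

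For 3 of the genes with the largest increases the values of the other 6 libraries of the series are given as well. Klk1b22, a kallikrein-related peptidase, had 16.4, 7.14 and 27.5 CPM in libraries labelled NICD_TCFKO and no count in those labelled NOTCHWT_TCFKO, at least 220-fold higher. Itln1, which encodes the lectin intelectin 1, had 8.55, 10.1 and 12 CPM against no count, at least 133-fold higher. Ccnb1ip1, a ubiquitin ligase gene needed for meiotic crossing over, had 1.7, 5.59 and 8.29 CPM against no count, at least 67.3-fold higher. All 3 genes were present in the other 2 groups of the series too: the libraries labelled NICD_TCFWT averaged 17 CPM of Klk1b22, 4.15 of Itln1 and 2.83 of Ccnb1ip1, and those labelled NOTCHWT_TCFWT averaged 10.7, 12.7 and 5.09 CPM. Of the 4 groups, NOTCHWT_TCFKO was the one with no count of them.

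Among the largest decreases outside the macrophage genes described below, Eps8l1, an EPS8 family gene of actin regulation, had 0.4, 0.581 and 0.124 CPM in libraries labelled NICD_TCFKO and 27, 24.3 and 25 CPM in those labelled NOTCHWT_TCFKO (log2 -6.10 ± 0.55, adjusted p = 7.31e-05). Kcnj10, an inward-rectifier potassium channel, had 0.075, 0.0726 and 0.224 CPM in libraries labelled NICD_TCFKO against 14.3, 16.4 and 11.9 (log2 -6.81 ± 0.64, adjusted p = 8.19e-05). Col14a1, a collagen, had 0.475, 0.194 and 0.199 CPM against 14.1, 19.8 and 14 (log2 -5.77 ± 0.41, adjusted p = 1.12e-05), and Lpl, lipoprotein lipase, had 0.875, 0.266 and 0.498 CPM against 32.7, 22.6 and 22.2 (log2 -5.56 ± 0.43, adjusted p = 1.94e-05). These genes were chosen for size and for groups that do not overlap. Slc16a11, a monocarboxylate transporter family member, was lower as well, with 0.85, 0.169 and 0.398 CPM against 14.6, 6.24 and 29.2 (log2 -5.14 ± 0.75, adjusted p = 0.00186). Nanp, a phosphatase of sialic acid synthesis, had 0.2, 0.169 and 0.249 CPM against 22.1, 27.7 and 1.96, and its call (adjusted p = 0.0379) was lost without any 1 library except NOTCHWT_TCFKO 3 (adjusted p = 0.0769 to 0.132).

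Notch target genes were higher as a group: 13 of the 18 members, all of them tested, rose in libraries labelled NICD_TCFKO and 1 fell, beside 10.3% and 8.06% of all genes, and the median log2 difference was 3.47, beside 0.004 over all genes. All 9 targets of the signalling and feedback class rose. Of the promoter windows of the list, 250 bases before to 50 after a gene start in RefSeq (GRCm38.p6), 16 were found, for 14 of the genes. They were searched for the RBPJ core TGGGAA on both strands. The letters occurred in 6 of these windows, 37.5%, and in 8397 of 32851 promoters of the whole table, 25.6%. The TCF core TCAAAG, searched likewise, occurred in 1 of the 16 windows, 6.25%, and in 16% of all promoters. The windows of Ptcra, Hey2 and Hes5 are shown because each holds the RBPJ core at 2 places, in capitals, and because all 3 genes rose; a match is a description of letters and no measured binding. They are given 5' to 3' along the gene.
Ptcra (chr17:46763663-46763962, strand -): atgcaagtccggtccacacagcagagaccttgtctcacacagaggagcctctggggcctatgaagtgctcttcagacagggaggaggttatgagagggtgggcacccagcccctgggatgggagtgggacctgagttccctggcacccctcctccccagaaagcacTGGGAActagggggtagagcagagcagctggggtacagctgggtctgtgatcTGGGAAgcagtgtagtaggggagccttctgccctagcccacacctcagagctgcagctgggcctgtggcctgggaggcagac
Hey2 (chr10:30842734-30843033, strand -): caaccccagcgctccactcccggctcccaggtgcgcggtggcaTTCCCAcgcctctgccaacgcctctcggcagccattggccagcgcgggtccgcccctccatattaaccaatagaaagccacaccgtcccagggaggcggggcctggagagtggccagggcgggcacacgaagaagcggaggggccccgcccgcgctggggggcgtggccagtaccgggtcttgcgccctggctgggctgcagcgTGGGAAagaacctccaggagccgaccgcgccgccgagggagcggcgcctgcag
Hes5 (chr4:154960673-154960972, strand +): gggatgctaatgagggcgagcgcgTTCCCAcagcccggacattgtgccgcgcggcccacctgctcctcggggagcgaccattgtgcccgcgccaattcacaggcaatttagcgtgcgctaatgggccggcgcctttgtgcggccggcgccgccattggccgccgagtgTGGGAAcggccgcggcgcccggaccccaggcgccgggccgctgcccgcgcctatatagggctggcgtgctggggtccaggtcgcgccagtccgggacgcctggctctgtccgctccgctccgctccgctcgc
In Ptcra the matches begin 84 and 32 bases before the gene start, in Hey2 207 and 3 bases, and in Hes5 226 and 82 bases before it. The other windows with the core, at 1 place each, are of Gpr183, which rose, and of Igf1r and Cdkn1a, which were not called. The windows of Dtx1, Nrarp, Il2ra, Il7r, Notch1 and Notch3, which rose too, do not hold these letters. No window was found for Hes1, Hey1, Heyl and Myc.

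Hes1, a repressor that is a direct target of Notch in many tissues, had 222, 117 and 134 CPM in libraries labelled NICD_TCFKO, against 10.7, 11.1 and 1.21 CPM in those labelled NOTCHWT_TCFKO (log2 4.37 ± 0.79, adjusted p = 0.00664). Dtx1, the Deltex regulator of Notch signalling, had 64.7, 165 and 132 CPM against 0.0792, 0.425 and 0.121 (log2 9.17 ± 0.54, adjusted p = 7.49e-06). Nrarp, a feedback inhibitor of the Notch complex, had 75.7, 70.7 and 59.9 CPM against 6.02, 4.19 and 5.5 (log2 3.71 ± 0.16, adjusted p = 5.34e-07). In none of these 3 genes did the groups overlap, which held for 17.1% of all genes tested in the higher direction. Notch3, a second receptor of the family and itself a target, had 45.7, 108 and 116 CPM against 0.924, 1.51 and 2.38 (log2 5.80 ± 0.45, adjusted p = 3.87e-05). Heyl had 3.1, 9.17 and 12.6 CPM against 0.0264, 0.186 and 0.0242 (log2 6.68 ± 1.11, adjusted p = 0.00316), and Hey2 0.55, 1.5 and 1.05 CPM against no count, at least 13.4-fold higher; both encode repressors of the Hairy family. Hey1, of the same family, was highest in NICD_TCFKO 1, with 22.3, 4.07 and 5.35 CPM against 1.16, 0.664 and 0.17 (log2 4.0 ± 0.85, adjusted p = 0.0126, or 0.062 when only the 2 groups were fitted). Hes5 rose by less, to 2.7, 3.27 and 3.21 CPM against 0.528, 0.557 and 1.79 (log2 1.67 ± 0.44, adjusted p = 0.0255), a call lost without NICD_TCFKO 2 or 3 or NOTCHWT_TCFKO 1 or 2 (adjusted p = 0.0598 to 0.0822).

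**Figure D2:**
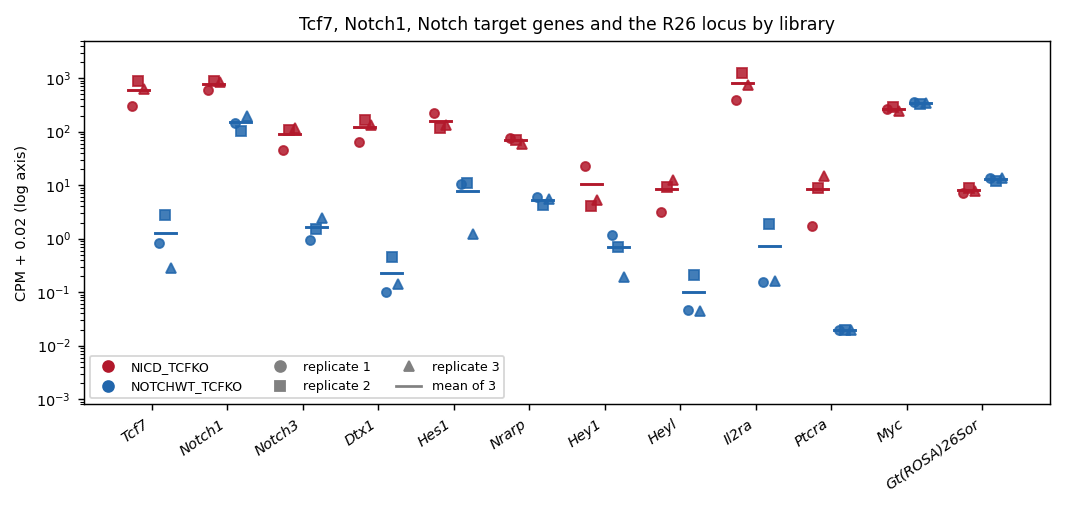
CPM plus 0.02 on a log axis for 12 genes, with 1 point per library, NICD_TCFKO left of NOTCHWT_TCFKO, and a bar at the mean of 3. Tcf7, Il2ra and Dtx1 are far apart between the groups with no overlap, Myc and Gt(ROSA)26Sor are a little lower in NICD_TCFKO, and Ptcra has no count in any NOTCHWT_TCFKO library.

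The lymphoid targets of the list moved less evenly, with 4 of 9 higher and 1 lower, beside 10.3% and 8.06% of all genes. Il2ra, the interleukin 2 receptor alpha chain that marks early thymocytes, had 395, 1260 and 745 CPM in libraries labelled NICD_TCFKO, against 0.132, 1.86 and 0.145 CPM in those labelled NOTCHWT_TCFKO (log2 10.15 ± 1.00, adjusted p = 0.000252). Ptcra, whose product pairs with the beta chain in the pre-T cell receptor, had 1.72, 9 and 14.8 CPM against no count, at least 110-fold higher. Il7r, the interleukin 7 receptor alpha chain, had 31.6, 83.4 and 78.6 CPM against 10.3, 11.3 and 15.9 (log2 2.37 ± 0.49, adjusted p = 0.0105). Gpr183, an oxysterol receptor, had 7.92, 25.9 and 11.6 CPM against 1.27, 3.19 and 0.436 (log2 3.22 ± 0.73, adjusted p = 0.0146), a call lost without NICD_TCFKO 2 (adjusted p = 0.0527) or NOTCHWT_TCFKO 1 (adjusted p = 0.0629). Myc, the growth regulator that Notch induces in T cell leukaemia, was the member that fell, with 262, 287 and 248 CPM in libraries labelled NICD_TCFKO and 357, 327 and 345 CPM in those labelled NOTCHWT_TCFKO (log2 -0.37 ± 0.11, adjusted p = 0.0381). Its call was lost without any 1 library except NOTCHWT_TCFKO 3 (adjusted p = 0.0511 to 0.121). Ccnd3, Trib2, Igf1r and Cdkn1a did not pass the test, at log2 0.29, -0.64, -0.38 and 1.14.

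Genes of the proteins that make and carry the Notch signal were called about as often as genes in general. Of 37 members 36 were tested, of which 4 were higher (11.1%) and 3 lower (8.33%), beside 10.3% and 8.06% of all genes, and their median log2 difference was 0.06. Apart from Notch1 and Notch3, the higher members were Dtx2 (log2 0.49 ± 0.11, adjusted p = 0.0156), a Deltex relative, and Rbpj, with 167, 184 and 178 CPM in libraries labelled NICD_TCFKO against 156, 145 and 144 (log2 0.25 ± 0.06, adjusted p = 0.016). The lower members were Numb, a Notch inhibitor (log2 -0.36 ± 0.09, adjusted p = 0.0181), Adam10, the protease that cuts the receptor outside the cell (log2 -0.38 ± 0.10, adjusted p = 0.0237), and Psen2, a gamma-secretase subunit (log2 -0.61 ± 0.17, adjusted p = 0.0279). Except for Notch1 and Notch3, each of these calls was lost without at least 1 library, and without NICD_TCFKO 2 or NOTCHWT_TCFKO 1 none of the lower ones was left. Notch2 had 216, 210 and 212 CPM against 202, 206 and 252 CPM (log2 -0.05 ± 0.09, adjusted p = 0.748), and no ligand was called.

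T cell receptor, CD3 and signalling genes rose widely in libraries labelled NICD_TCFKO. Of 35 members 31 were tested, 23 were higher (74.2%) and 1 lower (3.23%), beside 10.3% and 8.06% of all genes. The median log2 difference was 3.74, and the higher count ran from 18 to 25 without any 1 library. All 6 tested genes of the constant regions and the pre-T cell receptor rose. Trbc1, of the T cell receptor beta chain, had 73.1, 266 and 169 CPM in libraries labelled NICD_TCFKO, against 0.0528, 0.849 and 0.0242 CPM in those labelled NOTCHWT_TCFKO (log2 9.11 ± 0.93, adjusted p = 0.000302). Trbc2, a near copy of it, had 82, 246 and 192 CPM against 0.0792, 1.49 and 0.097 (log2 8.31 ± 0.83, adjusted p = 0.000263). Reads of such copies may be split between them by the counting. Of the gamma chain genes, Tcrg-C1 had 50.4, 278 and 152 CPM against 0.106, 0.664 and 0.0242 (log2 9.25 ± 1.13, adjusted p = 0.000836) and Tcrg-C2 40.9, 189 and 123 CPM against 0.0528, 0.239 and 0 (log2 10.23 ± 0.88, adjusted p = 9.62e-05). Tcrg-C3 had 1.72, 14.1 and 3.16 CPM against no count, at least 82-fold higher, with a call lost without NICD_TCFKO 3 (adjusted p = 0.0726) or NOTCHWT_TCFKO 1 or 2 (0.0573 and 0.055). Trac, the constant region of the alpha chain, was too low to be tested, with 0, 0.0484 and 0.0249 CPM in libraries labelled NICD_TCFKO and 0, 0.796 and 0.0242 CPM in those labelled NOTCHWT_TCFKO.

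The kinases and adaptors behind the receptor showed 9 of 11 members higher, beside 10.3% of all genes. Lck, the first kinase of the cascade, had 250, 556 and 411 CPM in libraries labelled NICD_TCFKO, against 19.8, 12.7 and 39.3 CPM in those labelled NOTCHWT_TCFKO (log2 4.08 ± 0.47, adjusted p = 0.000509). Zap70 (log2 2.43 ± 0.38, adjusted p = 0.00205), the kinase that docks on the phosphorylated receptor, Fyn (1.14 ± 0.14, adjusted p = 0.000408), a relative of Lck, Lcp2 (1.00 ± 0.09, adjusted p = 8.13e-05), the adaptor SLP-76, and Grap2 (3.43 ± 0.51, adjusted p = 0.00181), its partner, were higher in every analysis run. Cd247, the zeta chain, had 5.52, 21.6 and 23.5 CPM against 1.72, 1.81 and 3.01 (log2 2.95 ± 0.46, adjusted p = 0.00188). Of the other CD3 chains, Cd3g had 14.2, 89.7 and 94.5 CPM against 0.0264, 1.88 and 0.0242 (log2 6.69 ± 1.54, adjusted p = 0.026), a call lost without NICD_TCFKO 2 or 3 or NOTCHWT_TCFKO 1 (adjusted p = 0.0647 to 0.0812). Cd3e, at 3.87, 26 and 28.6 CPM against 0, 1.73 and 0.0242 (log2 5.06 ± 1.59, adjusted p = 0.0549), and Cd3d, at log2 3.55 ± 1.27 (adjusted p = 0.0787), did not pass.

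Of the surface antigens, Thy1 had 81, 196 and 186 CPM in libraries labelled NICD_TCFKO, against 8.24, 10.1 and 12.6 CPM in those labelled NOTCHWT_TCFKO (log2 3.9 ± 0.38, adjusted p = 0.000155). Cd5, an inhibitor of receptor signalling, had 10.9, 27.1 and 15.2 CPM against 0.687, 0.451 and 1.19 (log2 4.50 ± 0.45, adjusted p = 0.000107), and its relative Cd6 was at log2 3.74 ± 0.40 (adjusted p = 0.000197). Cd4, the co-receptor of helper T cells, was the member that fell, with 3.07, 3.58 and 3.19 CPM against 6.13, 9.29 and 7.44 (log2 -1.21 ± 0.25, adjusted p = 0.00897). Of the recombination genes, Rag1 had 19.7, 54.7 and 52.9 CPM against 5.41, 5.04 and 14.1 (log2 2.38 ± 0.55, adjusted p = 0.0163), a call lost without NICD_TCFKO 2 or NOTCHWT_TCFKO 1 or 2 (adjusted p = 0.0518 to 0.0632). Dntt, which adds bases at the joins, overlapped between the groups, with 39.5, 142 and 246 CPM against 327, 126 and 492 (log2 -1.14 ± 0.63, adjusted p = 0.241). NICD_TCFKO 1 was the lowest of its group in 30 of the 31 genes tested, beside 34.9% of all genes, so the T cell genes were lower there than in NICD_TCFKO 2 and 3 throughout.

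Transcription factors of the T lineage moved in both directions, with 10 of 33 tested higher (30.3%) and 5 lower (15.2%), beside 10.3% and 8.06% of all genes; DESeq2 called 8 lower. Bcl11b, which commits thymocytes to the T lineage, had 17.8, 86.3 and 94.7 CPM in libraries labelled NICD_TCFKO, against 0.0792, 0.982 and 0 CPM in those labelled NOTCHWT_TCFKO (log2 7.56 ± 1.27, adjusted p = 0.00442). Gata3, a regulator of early T cells, had 32.8, 68.7 and 52 CPM against 10.5, 8.18 and 12.7 (log2 2.29 ± 0.28, adjusted p = 0.00045). Ets1 (log2 1.54 ± 0.26, adjusted p = 0.00355) and the Helios gene Ikzf2 (log2 0.80 ± 0.08, adjusted p = 0.000133) rose as well. Of 13 factors of progenitors and early thymic stages 3 fell, 1 rose and 9 did not pass the test. Bcl11a was the one that rose (log2 0.32 ± 0.10, adjusted p = 0.0432), a call lost without NICD_TCFKO 1 or 3 or NOTCHWT_TCFKO 1 or 2 (adjusted p = 0.0802 to 0.127). Of those that fell, Lmo2 had 350, 142 and 233 CPM against 645, 571 and 760 (log2 -1.45 ± 0.26, adjusted p = 0.00448) and Mef2c 147, 125 and 142 CPM against 231, 185 and 261 (log2 -0.71 ± 0.12, adjusted p = 0.00296). The calls of Bcl11b, Gata3, Ets1, Ikzf2, Lmo2 and Mef2c held in every analysis, while the list's higher count fell to 5 without NICD_TCFKO 3 and 6 without NOTCHWT_TCFKO 1, and its lower count to 2 without NICD_TCFKO 2 and 3 without NICD_TCFKO 3 or any 1 library labelled NOTCHWT_TCFKO. Spi1, which encodes PU.1, was at log2 -0.37 ± 0.12 (adjusted p = 0.0587). Of the TCF/LEF factors Tcf7 alone passed the test: Lef1 had 0.45, 3.34 and 7.19 CPM against 0.0792, 1.41 and 0.17 (log2 2.73 ± 1.27, adjusted p = 0.166). In the wider Wnt list 3 of 26 tested were higher and 3 lower (11.5% each), beside 10.3% and 8.06% of all genes. The lower count was 0 without NICD_TCFKO 2, NICD_TCFKO 3, NOTCHWT_TCFKO 1 or NOTCHWT_TCFKO 3 and 6 in DESeq2, and the higher count was 5 without NOTCHWT_TCFKO 3. Of these genes Tle3, a co-repressor of TCF factors, held in every analysis beside Tcf7, with 156, 252 and 213 CPM against 96.1, 97.9 and 114 (log2 1.01 ± 0.15, adjusted p = 0.00137). Ctnnb1, the beta-catenin gene, was at log2 0.19 ± 0.09 (adjusted p = 0.156).

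**Figure D3:**
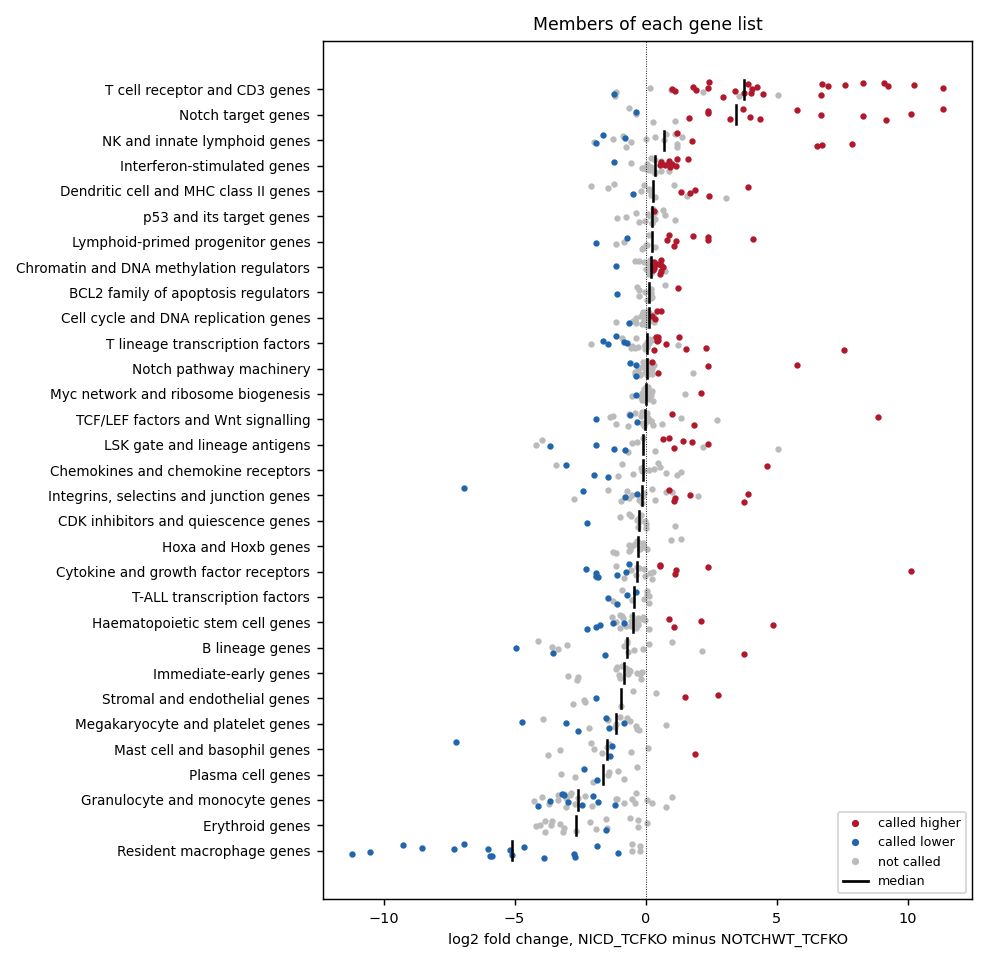
Log2 fold change (NICD_TCFKO minus NOTCHWT_TCFKO) of each tested member of 31 gene lists, called higher in red, called lower in blue and not called in grey, with the median as a black bar. The medians run from 3.74 for T cell receptor genes at the top to -5.08 for resident macrophage genes at the bottom.

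Of the antigens used in the sort, Kit had 708, 610 and 615 CPM in libraries labelled NICD_TCFKO and 774, 684 and 977 CPM in those labelled NOTCHWT_TCFKO (log2 -0.33 ± 0.12, adjusted p = 0.0756). Ly6a, which encodes Sca1, had 111, 120 and 74.7 CPM against 33, 33.7 and 45.9 (log2 1.44 ± 0.25, adjusted p = 0.00373). Ptprc, the CD45 gene, was called higher too, a call lost when only the 2 groups were fitted (adjusted p = 0.0508). Of the antigens that divide the gate, Flt3, a receptor of multipotent and lymphoid-primed progenitors, had 127, 99.3 and 131 CPM against 400, 280 and 656 (log2 -1.90 ± 0.30, adjusted p = 0.00254). Cd48, which is low on stem cells, had 253, 226 and 179 CPM against 113, 98 and 98.5 (log2 1.09 ± 0.17, adjusted p = 0.00201). In bulk RNA a lower level can come from fewer cells of a type or less RNA per cell, which cannot be told apart. Genes of cells that a lineage-negative gate is meant to remove were detected in libraries of both labels. The macrophage antigen gene Adgre1 was at 17.8 to 30.2 CPM in those labelled NOTCHWT_TCFKO, and Cd3e, given above, was higher in those labelled NICD_TCFKO without passing the test. Of 8 usual lineage antigens tested 1 was higher, Klrb1c, and 1 lower, Cd4, beside 10.3% and 8.06% of all genes. Fcgr3, an Fc receptor gene used to divide myeloid progenitors, had 2.65, 2.93 and 5.05 CPM against 50.7, 70.8 and 10.7 (log2 -3.64 ± 1.01, adjusted p = 0.0355), a call lost without any 1 library except NOTCHWT_TCFKO 3 (adjusted p = 0.0778 to 0.126).

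Of 30 stem cell genes 4 were higher (13.3%) and 5 lower (16.7%), beside 10.3% and 8.06% of all genes, and the median log2 difference was -0.47. DESeq2 called 8 lower. Mycn, a Myc relative, had 183, 140 and 162 CPM in libraries labelled NICD_TCFKO, against 33.1, 28.8 and 50.9 CPM in those labelled NOTCHWT_TCFKO (log2 2.10 ± 0.22, adjusted p = 0.000187). The imprinted RNA H19 (log2 4.86 ± 0.97, adjusted p = 0.0073) and Ptger4, a prostaglandin E2 receptor (log2 0.89 ± 0.14, adjusted p = 0.00236), rose as well. Cdkn1c, the cyclin-dependent kinase inhibitor p57 of quiescent stem cells, fell to 1.2, 0.799 and 1.07 CPM against 4.89, 2.55 and 7.05 (log2 -2.24 ± 0.42, adjusted p = 0.00495). Hlf, a stem cell transcription factor, had 180, 58.5 and 124 CPM against 378, 293 and 547 (log2 -1.75 ± 0.40, adjusted p = 0.0168), which was lost without NICD_TCFKO 3 (adjusted p = 0.0507). The groups overlapped in Procr, the stem cell surface protein EPCR, with 38.8, 11.8 and 24.9 CPM against 21.6, 14.6 and 47.2 (log2 -0.14 ± 0.52, adjusted p = 0.879). NICD_TCFKO 2 was the lowest of its group in 27 of these 30 genes, beside 35.1% of all genes, and the lower count was 8 without NICD_TCFKO 1, 2 without NICD_TCFKO 3 and 3 without NOTCHWT_TCFKO 1 or 3.

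Lymphoid-primed progenitor genes had 8 of 18 higher (44.4%) and 2 lower (11.1%), beside 10.3% and 8.06% of all genes. Il2rg, the common gamma chain of interleukin receptors, had 124, 125 and 109 CPM in libraries labelled NICD_TCFKO, against 53.7, 38.6 and 67.4 CPM in those labelled NOTCHWT_TCFKO (log2 1.17 ± 0.21, adjusted p = 0.0045). Ly6d, an antigen of lymphoid progenitors, had 21.6, 83.2 and 62.3 CPM against 0.555, 5.57 and 3.54 (log2 4.11 ± 0.78, adjusted p = 0.00724, or 0.067 when only the 2 groups were fitted). The 2 that fell were Flt3 and Mef2c. The higher count was 5 without NICD_TCFKO 2 or NOTCHWT_TCFKO 1.

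Resident macrophage genes were lower almost throughout. Of 23 members 21 were tested and 17 fell (81%), beside 8.06% of all genes. None rose, with no higher call at an unadjusted p under 0.05, in DESeq2 or in limma-voom. The median log2 difference was -5.08, or -4.74 with Timd4, which had no count in libraries labelled NICD_TCFKO, set at its bound. Cd5l, a secreted macrophage protein, had 1 count in the 3 libraries labelled NICD_TCFKO, against 28.2, 30.7 and 21.8 CPM in those labelled NOTCHWT_TCFKO, a ratio of 3250 (exact 95% counting interval 583 to 128000). Fcna, a lectin of the complement system, had 3 counts against 36, 49.7 and 37.5 CPM, a ratio of 1660 (interval 567 to 8050). Siglec1, the sialoadhesin of macrophages, had 0.025, 0 and 0.174 CPM against 24.3, 31.2 and 22.1 (log2 -8.54 ± 0.84, adjusted p = 0.000121). Vcam1, an adhesion molecule of macrophages that ring erythroblasts, had 1.25, 0.387 and 2.04 CPM against 153, 182 and 112 (log2 -6.93 ± 0.64, adjusted p = 0.000142). Mrc1, the mannose receptor, had 0.225, 0.339 and 0.722 CPM against 71.1, 77.9 and 55 (log2 -7.30 ± 0.60, adjusted p = 5.87e-05). Mertk and Axl, receptors for the uptake of dying cells, were at log2 -6.03 ± 0.45 (adjusted p = 1.58e-05) and -2.71 ± 0.34 (adjusted p = 0.000648).

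The complement genes fell together: C1qa had 0.45, 0.46 and 0.797 CPM in libraries labelled NICD_TCFKO, against 31.1, 40.5 and 34.8 CPM in those labelled NOTCHWT_TCFKO (log2 -5.95 ± 0.55, adjusted p = 8.19e-05), and C1qb and C1qc were at log2 -5.87 ± 0.83 (adjusted p = 0.00147) and -5.08 ± 0.61 (adjusted p = 0.000436). Of the 7 genes listed for haem and iron handling and tested 3 fell, beside 8.06% of all genes, with a median log2 difference of -0.53. The 4 lower genes given next are not all listed in that class. Hmox1, haem oxygenase 1, had 0.95, 1.65 and 2.32 CPM against 66.4, 63.9 and 47.8 (log2 -5.18 ± 0.33, adjusted p = 7.2e-06), Spic, the factor that drives red pulp macrophages, had 3.7, 2.73 and 2.99 CPM against 12.1, 10.3 and 11.4 (log2 -1.85 ± 0.18, adjusted p = 0.000102), and Cd163, the haemoglobin scavenger receptor, was at log2 -2.72 ± 0.21 (adjusted p = 2.08e-05). Slc40a1, the iron exporter ferroportin, had 2.22, 2.42 and 8.79 CPM against 116, 138 and 75 (log2 -4.62 ± 1.10, adjusted p = 0.0204), a call lost without NICD_TCFKO 1 or 2 (adjusted p = 0.0551 and 0.084). The lower count ran from 16 to 19 without any 1 library. The 4 members that did not pass, Slc48a1, Trf, Fth1 and Ftl1, are of iron and haem handling and are made by other cells too. Summed over the list, the level was 1080 to 1120 CPM in libraries labelled NICD_TCFKO and 1740 to 2450 CPM in those labelled NOTCHWT_TCFKO. The sum includes these 4 members, so it is not a level of macrophage genes alone. Adgre1, which encodes F4/80, was at 0.375, 1.43 and 2.91 CPM against 21.7, 30.2 and 17.8 (log2 -3.88 ± 0.79, adjusted p = 0.00923). The part of macrophages, or of their RNA, in the other differences was not tested.

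**Figure D4:**
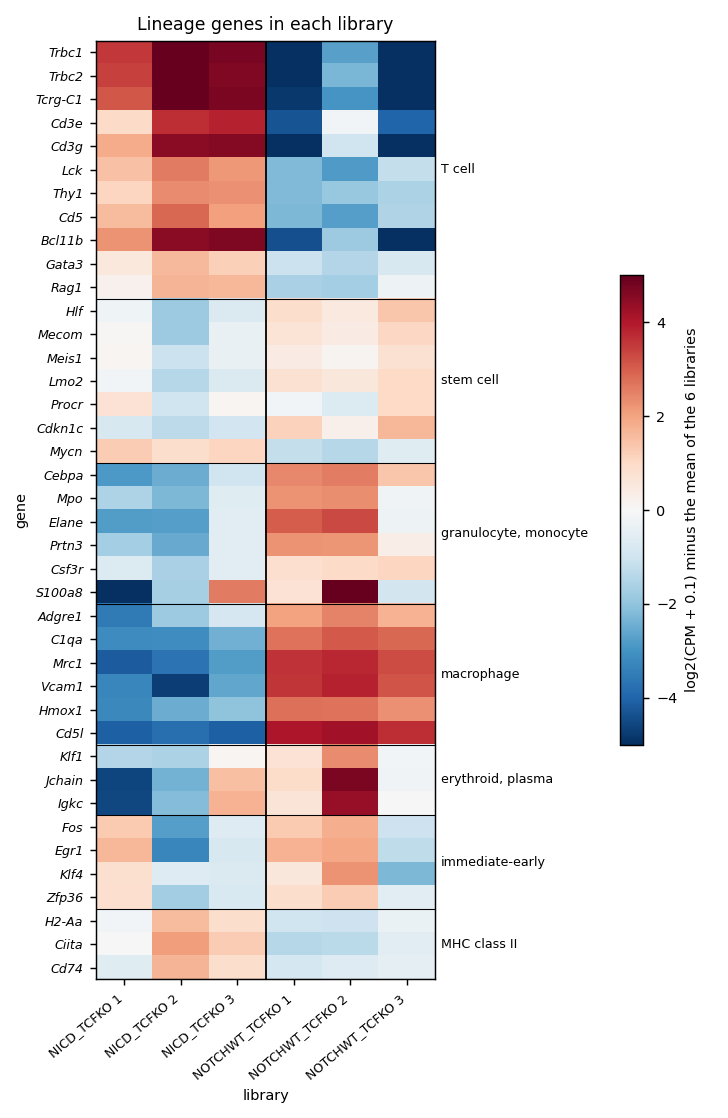
Log2(CPM + 0.1) minus the mean of the 6 libraries for 40 lineage genes (rows) in each library (columns), NICD_TCFKO left of the black line and NOTCHWT_TCFKO right of it. T cell genes are high at left and macrophage genes high at right in all 3 libraries of each group, while granulocyte, erythroid, plasma cell and immediate-early genes vary between libraries of 1 group.

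Granulocyte and monocyte genes were lower in part. Of 33 tested 9 fell (27.3%), beside 8.06% of all genes. None rose, also none at an unadjusted p under 0.05, in DESeq2 or in limma-voom, and the median log2 difference was -2.58. Cebpa, the factor that directs myeloid fate, had 1.75, 2.32 and 6.57 CPM in libraries labelled NICD_TCFKO, against 69.7, 79 and 34.7 CPM in those labelled NOTCHWT_TCFKO (log2 -4.11 ± 0.65, adjusted p = 0.00316). Csf3r, the G-CSF receptor, had 78.5, 40.7 and 87.6 CPM against 225, 247 and 263 (log2 -1.83 ± 0.38, adjusted p = 0.0106). These 2 calls held in every analysis. Mpo, myeloperoxidase, had 368, 225 and 712 CPM against 5080, 5340 and 949 (log2 -3.12 ± 0.77, adjusted p = 0.0239), and its call was lost without NICD_TCFKO 1 or 2 or NOTCHWT_TCFKO 1 or 2 (adjusted p = 0.0628 to 0.0926). Elane, neutrophil elastase, had 12.2, 12.5 and 58.7 CPM against 690, 827 and 71.6 (log2 -4.25 ± 1.52, adjusted p = 0.0851). Csf1r, the M-CSF receptor, overlapped between the groups, with 72.1, 63.2 and 121 CPM against 65.7, 117 and 34.2 (log2 0.24 ± 0.62, adjusted p = 0.822). The list's sum was 1080, 956 and 2290 CPM against 8350, 12900 and 2210 CPM, so NOTCHWT_TCFKO 3 lay within the range of the libraries labelled NICD_TCFKO. The lower count was 2 without NICD_TCFKO 1, NICD_TCFKO 2 or NOTCHWT_TCFKO 2, 5 without NICD_TCFKO 3 and 3 without NOTCHWT_TCFKO 1.

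Erythroid genes had a median log2 difference of -2.67. In edgeR 1 of 19 tested was lower (5.26%), beside 8.06% of all genes, and 0 were higher. At an unadjusted p under 0.05 there were 2 lower and 0 higher, and DESeq2 called 4 lower. NOTCHWT_TCFKO 2 was the highest of its group in 19 of 19 genes tested, beside 32.8% of all genes, and the sum over the list was 847, 655 and 1010 CPM in libraries labelled NICD_TCFKO against 1580, 4140 and 1210 CPM in those labelled NOTCHWT_TCFKO, with no overlap. Klf1, the erythroid master regulator, had 4.3, 3.99 and 12.9 CPM against 19.7, 61.6 and 11 (log2 -2.12 ± 1.18, adjusted p = 0.246). Car2, carbonic anhydrase 2, was the 1 gene called, at log2 -1.50 ± 0.37 (adjusted p = 0.0231), and the call was lost without NICD_TCFKO 3 or NOTCHWT_TCFKO 2 (adjusted p = 0.0632 and 0.0734). Of 18 megakaryocyte and platelet genes tested 6 were lower (33.3%), beside 8.06% of all genes, and 11 were lower in DESeq2. The edgeR count fell to 1 without NICD_TCFKO 2 and 3 without NOTCHWT_TCFKO 1 or 2. Pf4, platelet factor 4, had 1.05, 0.315 and 2.61 CPM against 13.9, 12.4 and 6.23 (log2 -3.03 ± 0.65, adjusted p = 0.0117, or 0.0676 when only the 2 groups were fitted). Of 13 mast cell and basophil genes tested 1 was higher (7.69%) and 3 lower (23.1%), beside 10.3% and 8.06% of all genes. Their median log2 difference was -1.46, and the lower count was 5 without NOTCHWT_TCFKO 3. The lower members were Tpsb2, Mitf and Cd63, the last with a call lost without NICD_TCFKO 3 or NOTCHWT_TCFKO 2. Cpa3, a carboxypeptidase that progenitors also express, had 172, 263 and 184 CPM against 62.1, 69.4 and 36.4 (log2 1.88 ± 0.25, adjusted p = 0.00101), while the regulator Mitf was lower (log2 -1.29 ± 0.24, adjusted p = 0.00465).

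Plasma cell genes varied between libraries of 1 group, with sums of 175, 350 and 830 CPM in libraries labelled NICD_TCFKO and 595, 3850 and 613 CPM in those labelled NOTCHWT_TCFKO. Igkc, the kappa constant region, had 3.65, 19.5 and 297 CPM against 139, 1820 and 87.1 (log2 -2.68, adjusted p = 0.324). Of 10 tested 2 were lower (20%), beside 8.06% of all genes. Of these, Sdc1, syndecan 1, had 5.22, 1.96 and 7.84 CPM against 17.7, 25.1 and 33.1 (log2 -2.34 ± 0.48, adjusted p = 0.00938). B lineage genes had 1 of 17 tested higher (5.88%) and 3 lower (17.6%), beside 10.3% and 8.06% of all genes. The lower count was 1 without NICD_TCFKO 2 or NOTCHWT_TCFKO 2, and 7 in DESeq2. The higher count was 3 without NOTCHWT_TCFKO 2, 2 without NICD_TCFKO 1 and 0 without any other 1 library. Blnk, an adaptor of the B cell receptor, had 0.45, 0.363 and 1.1 CPM against 4.75, 10.4 and 7.37 (log2 -3.55 ± 0.57, adjusted p = 0.0022). Ebf1, a factor that specifies B cells, had 0, 0.0242 and 0.199 CPM against 0.475, 4.19 and 2.5 (log2 -4.95 ± 1.32, adjusted p = 0.0269), a call lost without NICD_TCFKO 1 or 2 or NOTCHWT_TCFKO 2 (adjusted p = 0.06 to 0.103). Pax5, which follows Ebf1 in the lineage, was too low to be tested, with 1 count in libraries labelled NICD_TCFKO and 86 in the others, a ratio of 89.5 (interval 15.6 to 3570). Blk, a kinase of B cells and of some T cells, was the gene that rose, to 8.87, 31.1 and 29.2 CPM against 0.502, 3.21 and 1.38 (log2 3.76 ± 0.91, adjusted p = 0.0206), a call lost without NICD_TCFKO 2 or 3 or NOTCHWT_TCFKO 1 or 3 (adjusted p = 0.0522 to 0.0645).

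**Figure D5:**
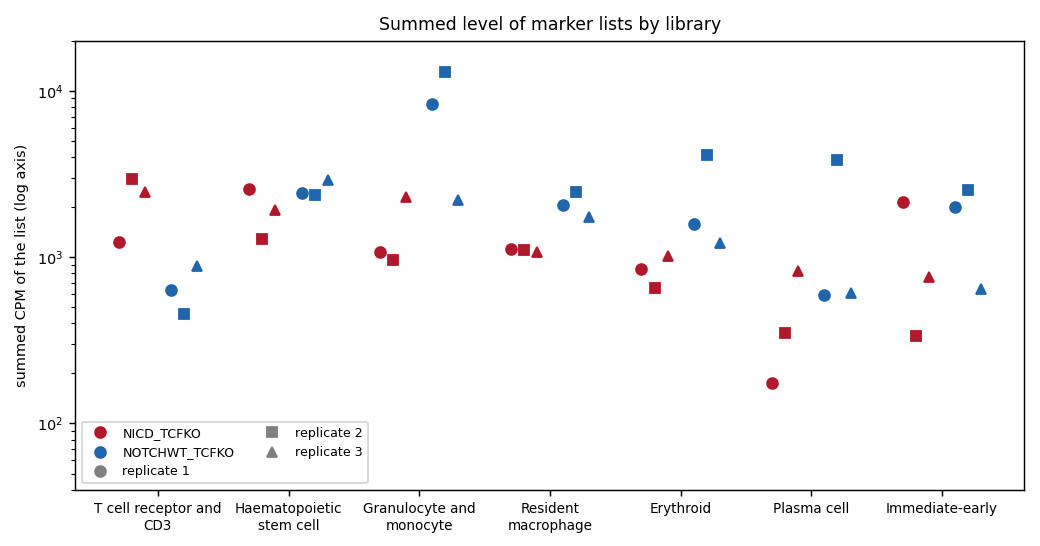
Summed CPM of 7 marker lists on a log axis, 1 point per library, NICD_TCFKO left of NOTCHWT_TCFKO. The T cell receptor sums are higher and the macrophage and erythroid sums lower in all 3 NICD_TCFKO libraries, and NOTCHWT_TCFKO 2 stands highest in the erythroid and plasma cell sums, at 4140 and 3850 CPM. The macrophage sum includes iron and haem genes that other cells make too.

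NK and innate lymphoid genes had 5 of 21 tested higher (23.8%) and 3 lower (14.3%), beside 10.3% and 8.06% of all genes. Gzmb, granzyme B, had 275, 182 and 128 CPM in libraries labelled NICD_TCFKO, against 2.03, 2.89 and 0.654 CPM in those labelled NOTCHWT_TCFKO (log2 6.72 ± 0.56, adjusted p = 8.19e-05), and Gzmc had 1.1, 0.847 and 0.373 CPM against no count, at least 10-fold higher. Prf1, perforin, which these granzymes need to enter a target cell, was near 0 in both groups, with 0.425, 0.726 and 1.07 CPM against 0.0792, 0.319 and 0.436 (log2 1.4, adjusted p = 0.257). The list's higher count was 3 without NICD_TCFKO 2 or 3 and 2 without NOTCHWT_TCFKO 1 or 3. Of 10 dendritic cell genes tested 1 was higher, Itgax, and 1 lower, Cst3, beside 10.3% and 8.06% of all genes. Their median log2 difference was 0.08. Itgax, the integrin CD11c, had 62.6, 142 and 134 CPM against 5.07, 9.9 and 7.73 (log2 3.9 ± 0.35, adjusted p = 8.95e-05). The call of Cst3 was lost without NOTCHWT_TCFKO 2 (adjusted p = 0.0814). Of 8 MHC class II genes tested 4 rose, beside 10.3% of all genes. Among them were H2-Aa with 66, 221 and 136 CPM against 37.3, 36.3 and 58.6 (log2 1.68 ± 0.49, adjusted p = 0.043, lost without any 1 library except NICD_TCFKO 1, at 0.0515 to 0.15) and their activator Ciita with 12.2, 51.2 and 28.8 CPM against 4.44, 4.62 and 8.07 (log2 2.43 ± 0.58, adjusted p = 0.0184, lost without NICD_TCFKO 2 or NOTCHWT_TCFKO 1 or 2, at 0.0626 to 0.0701). The whole list of MHC class II and dendritic cell genes had 5 of 18 tested higher (27.8%) and 1 lower (5.56%). Its 5 higher calls came to 1 without NICD_TCFKO 2, NOTCHWT_TCFKO 1 or NOTCHWT_TCFKO 2 and to 2 without NICD_TCFKO 3. Of 9 stromal and endothelial genes tested 2 were higher (22.2%) and 1 lower (11.1%), beside the same shares of all genes, with a median log2 difference of -0.95. Emcn, an endothelial sialomucin that stem cells also carry, fell to 8.2, 2.35 and 6.3 CPM in libraries labelled NICD_TCFKO, against 21.8, 15.3 and 24.8 CPM in those labelled NOTCHWT_TCFKO (log2 -1.88 ± 0.37, adjusted p = 0.00736, or 0.0581 when only the 2 groups were fitted). Pdgfrb, a PDGF receptor, had 521, 414 and 440 CPM against 59.9, 49 and 90.6 (log2 2.78 ± 0.20, adjusted p = 1.86e-05), while Col1a1, Cxcl12 and Cdh5 of the same list were under 5 CPM in every library.

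Receptors for cytokines went both ways, with 6 of 25 higher (24%) and 7 lower (28%), beside 10.3% and 8.06% of all genes. Besides Il2ra, Il7r and Il2rg, the interleukin 10 receptor gene Il10ra rose (log2 1.11 ± 0.23, adjusted p = 0.00896). Il6ra, the interleukin 6 receptor, had 6.6, 6.46 and 14.4 CPM in libraries labelled NICD_TCFKO, against 41.9, 58.7 and 33.3 CPM in those labelled NOTCHWT_TCFKO (log2 -2.28 ± 0.40, adjusted p = 0.00415). Ifngr1, of the interferon gamma receptor, had 73.7, 81.1 and 80.8 CPM against 183, 197 and 120 (log2 -1.09 ± 0.19, adjusted p = 0.00415), and Il18r1, of the interleukin 18 receptor, was at log2 -1.88 ± 0.44 (adjusted p = 0.0155). Of the adhesion genes, 6 of 25 were higher (24%) and 4 lower (16%), beside the same shares of all genes, with 2 lower without NICD_TCFKO 2. Itgal, the LFA-1 alpha chain of lymphocytes, had 473, 518 and 481 CPM against 138, 180 and 133 (log2 1.70 ± 0.12, adjusted p = 1.39e-05), and Jam2, a junctional adhesion molecule of stem cells and endothelium, fell (log2 -2.39 ± 0.51, adjusted p = 0.00982). Cxcr4, the receptor for the marrow chemokine CXCL12, did not pass (log2 0.55 ± 0.21, adjusted p = 0.0929).

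Interferon-stimulated genes had 10 of 28 higher (35.7%) and 1 lower (3.57%), beside 10.3% and 8.06% of all genes, with a median log2 difference of 0.37. The higher count was 4 without NICD_TCFKO 2, 6 without NICD_TCFKO 3, 3 without NOTCHWT_TCFKO 1 and 4 without NOTCHWT_TCFKO 2. Poly(I:C), which both groups received, induces this class of genes. Xaf1, a pro-apoptotic member, had 62.3, 71.3 and 92.3 CPM in libraries labelled NICD_TCFKO, against 26.3, 19.6 and 27.1 CPM in those labelled NOTCHWT_TCFKO (log2 1.63 ± 0.17, adjusted p = 0.00015). Oas1a, an antiviral sensor of double-stranded RNA, was at log2 0.56 ± 0.12 (adjusted p = 0.0126), and Rsad2, the antiviral enzyme viperin, went the other way with 12.8, 11 and 6.5 CPM against 20.3, 28.4 and 21.5 (log2 -1.21 ± 0.26, adjusted p = 0.00977). Mx1, an antiviral GTPase whose promoter drives the Cre, did not pass (log2 0.04 ± 0.25, adjusted p = 0.931).

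Of 38 cell cycle genes 4 were higher (10.5%) and 1 lower (2.63%), beside 10.3% and 8.06% of all genes, and the median log2 difference was 0.11. The higher count was 8 without NOTCHWT_TCFKO 2, and the lower count was 2 without NOTCHWT_TCFKO 3 and 0 without any other 1 library. Tyms, which makes thymidylate, had 130, 135 and 124 CPM in libraries labelled NICD_TCFKO, against 96.7, 97.3 and 91.1 CPM in those labelled NOTCHWT_TCFKO (log2 0.45 ± 0.08, adjusted p = 0.00314), and Uhrf1, which helps to copy DNA methylation, was at log2 0.58 ± 0.10 (adjusted p = 0.0037). Mki67, the gene of the proliferation marker Ki-67, had 921, 1060 and 1040 CPM against 1090, 1180 and 961 (log2 -0.10 ± 0.15, adjusted p = 0.68). Chromatin regulators had 10 of 30 higher (33.3%) and 1 lower (3.33%), beside the same shares of all genes, at a median log2 difference of 0.19. The de novo DNA methyltransferase Dnmt3a (log2 0.58 ± 0.11, adjusted p = 0.00644) and the BAF subunit gene Arid1a (log2 0.54 ± 0.08, adjusted p = 0.00116) rose, and Hdac9, a histone deacetylase, fell (log2 -1.12 ± 0.17, adjusted p = 0.0018). The list's higher count was 5 or 6 without NICD_TCFKO 2 or 3 or NOTCHWT_TCFKO 1 or 2. Bcl2, which blocks apoptosis, had 63, 88.8 and 76.9 CPM against 185, 145 and 150 (log2 -1.07 ± 0.18, adjusted p = 0.00286), while Bcl2l11, which encodes the killer BIM, was at log2 -0.01 ± 0.14 (adjusted p = 0.977). Of 17 genes of p53 and its targets 1 was higher (5.88%), beside 10.3% of all genes. It was Trp53 itself (log2 0.33 ± 0.08, adjusted p = 0.018), a call lost without NICD_TCFKO 2 or NOTCHWT_TCFKO 1 or 2 (adjusted p = 0.0512 to 0.0563).

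None of 16 Hoxa and Hoxb genes tested was called by edgeR; at an unadjusted p under 0.05 there were 4 lower and 0 higher, and DESeq2 and limma-voom each called 1 lower. Hoxb4 had 16.1, 11.9 and 17.3 CPM in libraries labelled NICD_TCFKO and 15.3, 13.4 and 20.1 CPM in those labelled NOTCHWT_TCFKO (log2 -0.10 ± 0.20, adjusted p = 0.754). None of 16 immediate-early genes was called either, with 3 lower and 0 higher at an unadjusted p under 0.05, 1 lower in DESeq2 and 0 in limma-voom. Without NOTCHWT_TCFKO 3 there were 3 lower calls, and without NICD_TCFKO 1 there was 1. The genes varied within the groups. Egr1, a factor induced within minutes of many stimuli and of cell handling, had 198, 6.41 and 35.2 CPM in libraries labelled NICD_TCFKO and 205, 240 and 25.9 CPM in those labelled NOTCHWT_TCFKO. NICD_TCFKO 1 was the highest of its group in 16 of 16 such genes and NOTCHWT_TCFKO 3 the lowest of its group in 16 of 16, beside 33.8% and 34.9% of all genes.

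Genes with no count in 1 group were counted where the other group averaged at least 1 CPM. There were 28 with no count in libraries labelled NOTCHWT_TCFKO, of which 10 were antigen receptor segments, 8 of them T cell receptor beta J segments. Trbj1-1, the J segment with the most counts, had 15.4, 50.8 and 36.1 CPM in libraries labelled NICD_TCFKO and no count in the others. There were 26 with no count in libraries labelled NICD_TCFKO, of which 17 were immunoglobulin V segments. Most V segment counts came from 1 library: Ighv5-16 had 0.819, 41.6 and 0 CPM in libraries labelled NOTCHWT_TCFKO. Its 7 protein-coding genes included Cbr2, Cd209f, Chp2, Il1a, Timd4 and Vstm4, which were picked after their values were seen and are given without a test, since the set was chosen on these values. Timd4, a receptor of resident macrophages for dying cells, had 1.32, 3.19 and 1.43 CPM in libraries labelled NOTCHWT_TCFKO, so it was at least 26.7-fold lower in those labelled NICD_TCFKO.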

How the data were processed

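The deposited values are raw counts per Ensembl gene, 1 table per sample, which the authors made from single-end reads of 75 nt. The submitters' processing notes list the tools bcl2fastq (2.17), cutadapt (1.9.1), featureCounts (1.4.4), HISAT2, limma and edgeR (3.28.0), and the build mm10, with no roles. The count tables hold 39017 genes, and GENCODE M21 gave symbols for 37607. A deposited log2 table was not used.

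Genes were filtered with filterByExpr by group, and CPM was taken over library sizes multiplied by TMM factors. edgeR 4.0.16 under R 4.3.3 fitted a quasi-likelihood model of 4 group means to the 12 libraries, with a common biological coefficient of variation of 0.299. Tests were two-sided, p-values were adjusted over the 16024 genes that passed the filter by the Benjamini-Hochberg method, and calls were made at 0.05. Each SE was obtained from the log2 fold change and its F statistic. The steps were tested on simulated data. Where no library of a group had a count, folds were computed against 3 counts per library, 0.0741 CPM in NICD_TCFKO and 0.0772 CPM in NOTCHWT_TCFKO. Intervals and floors cover counting error only. Alternatives used RLE size factors, other filters, DESeq2 1.42.0, limma-voom (3.58.1), only the 2 groups, a replicate block, no sex-linked genes, and libraries left out.

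Genes named are Tcf7 and Notch1, key members of 33 lists, up to 8 members per list with the smallest p, and the 15 largest changes in each direction, which required 5 CPM on average in the higher group and groups that did not overlap, and passed over predicted genes, Rik clones, pseudogenes, receptor segments and sex-linked genes. A further 27 genes, mostly other list members, were picked after their values were seen. A few genes the rule picks are not reported here. The comparison and the lists were chosen with earlier results of these data known.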

Additional observations from a re-analysis of the deposited data

Results flagged for a closer look

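In each of 6 chosen genes, the effect of the N1IC label differed between libraries labelled as Tcf7 deleted and those labelled as Tcf7 intact. The first pair was NICD_TCFKO minus NOTCHWT_TCFKO and the second NICD_TCFWT minus NOTCHWT_TCFWT. An interaction contrast over all 12 libraries was fitted to every gene tested. The share of all genes that passed it is not given here, so these 6 do not stand for genes in general. For Tcf7 the difference of log2 fold changes was 10.32 ± 0.97 (SE, adjusted p = 9.07e-05). Its means were 603 ± 300 CPM in NICD_TCFKO and 1.28 ± 1.31 CPM in NOTCHWT_TCFKO (SD, n = 3 each, here and below), and 5.5 ± 1.11 CPM in NICD_TCFWT and 14.8 ± 4.54 CPM in NOTCHWT_TCFWT. For Notch1 it was 4.04 ± 0.31 (adjusted p = 1.43e-05), with 774 ± 160 and 149 ± 46.7 CPM in the first pair and 180 ± 19.9 and 570 ± 44.3 CPM in the second pair. Thus in both genes the NICD library group was higher in the first pair and lower in the second.

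The Notch targets showed the same turn of direction. Dtx1 differed by 18.56 ± 0.78 (adjusted p = 4.31e-07), with means of 121 ± 51.3 CPM in NICD_TCFKO and 0.208 ± 0.189 in NOTCHWT_TCFKO, and 0.124 ± 0.0602 CPM in NICD_TCFWT and 85.4 ± 5.66 in NOTCHWT_TCFWT. Hes1 differed by 9.65 ± 1.15 (adjusted p = 0.000388), with 158 ± 56.3 and 7.67 ± 5.6 CPM, and 4.54 ± 2.94 and 177 ± 47.8 CPM, in the same order of groups. Nrarp differed by 7.93 ± 0.22 (adjusted p = 1.07e-08), with 68.8 ± 8.07 and 5.24 ± 0.942 CPM, and 6.15 ± 0.864 and 114 ± 6.32 CPM. Il2ra differed by 13.07 ± 1.37 (adjusted p = 0.000183), with 801 ± 437 and 0.712 ± 0.993 CPM, and 0.256 ± 0.128 and 1.9 ± 1.29 CPM. Whether samples or labels were exchanged was not tested.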

How the results depend on the processing

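Against 1650 higher and 1292 lower genes, fitting only the 2 groups gave 724 and 514. That fit has fewer residual degrees of freedom and takes its spread from the 2 groups alone, and the part of each was not tested. DESeq2 called 1998 lower genes, and 1068 were higher without both libraries numbered 1; the cause was not tested. Leaving out 1 library at a time gave 861 to 1786 higher and 649 to 1516 lower genes. A replicate block gave 1330 higher and 1010 lower genes; same-numbered libraries did not deviate together (correlations of 0.188, -0.00645 and -0.346), so the numbers were not taken to pair the samples. No named gene changed direction in an alternative where the main fit or that alternative called it. Changes of direction in genes that neither fit called were not recorded. The 6 interaction values kept their direction and their side of the threshold in every alternative that gave them an adjusted p. Of 183 named genes that were called, 80 lost the call in at least 1 setting, 58 of them when only the 2 groups were fitted and 53 without NOTCHWT_TCFKO 1. With 3 libraries a group, genes near the floor of 3 counts give bounds rather than fold changes.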
